A study of Mus musculus with 12 samples.

Results

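The genes described here had higher liver RNA levels on a high-fat diet in wild-type mice and less than or equal to 0.5 of that level in NLRP6 knockout mice on the same diet. They were chosen by the ratios of group mean levels, in CPM (the counts of a gene per 1000000 counts of its library), with 0.1 CPM added to each mean. A member had to be an annotated gene with a mean of 1 to 1000 CPM over the 12 libraries, a ratio of at least 2.5 for wild-type mice on the high-fat against the normal diet, a ratio of at most 0.5 for knockout against wild-type mice on the high-fat diet, and a ratio above 0.67 and below 4 for knockout mice on the high-fat against the normal diet. Of 41096 annotated rows, 11702 passed the lines on identifier and abundance, 209 of these passed the line on the wild-type diet ratio, and 34 passed every line and are the members. Identifiers with numbers up to 200 to either side of the gene that had no count in any knockout library had been left out. Because all 4 group means entered the choice, the ratios between groups are given below as a description and support nothing.

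Livers came from 4 groups with 3 libraries each. These were NLRP6 knockout mice on the high-fat diet (KO HFD), wild-type mice on the high-fat diet (WT HFD), knockout mice on the normal diet (KO ND) and wild-type mice on the normal diet (WT ND). All mice ate the normal diet up to 8 weeks of age, after which the HFD groups were given the high-fat diet for 12 weeks and the ND groups stayed on the normal one. The series concerns the part of NLRP6 in the build-up of fat in hepatocytes, and its text says that the receptor was knocked out in these cells. The strain, the sex, how the allele was made and whether a library stands for 1 mouse or a pool are not given in the sources used here.

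A diet rich in fat raises the supply of fatty acids to the liver, where hepatocytes burn them, export them in lipoproteins or store them as triglyceride in lipid droplets. Many liver genes follow this supply through nuclear receptors and other lipid-sensing transcription factors, and inflammatory and fibrogenic genes of non-parenchymal cells change as fatty liver disease advances. NLRP6 is an intracellular NOD-like receptor that can assemble an inflammasome and is best known from the gut epithelium. In whole liver, fewer cells of a type and less RNA per cell cannot be told apart. The count table does not pair its identifiers with gene symbols, and no identifier matched the gene tables used here, so neither the function of a member nor markers of liver cell types were analysed here. Members are called by their rank from 1 to 34 in mean CPM, which orders read counts and not transcript levels per length, and 4 are given by identifier.

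Total counts were 13339879 to 15933886 per library, which makes 1 CPM about 13 to 16 counts. The gene without a count in any of the 6 KO libraries had 2198 to 2981 counts per WT HFD library and 2019 to 2358 per WT ND library. The order of the libraries inside each group was described for all genes and for the members. Where replicates 1 and 2 of KO HFD lay at least 2-fold apart, replicate 3 lay between them for 1551 of 1752 annotated genes (88.5%), and the same held in WT HFD for 924 of 1072 genes (86.2%). In KO ND this share was 74.7% of 506 genes and in WT ND 74.3% of 697. Among the members it was 18 of 20 in KO HFD and 20 of 20 in WT HFD, so the HFD groups held 2 outer libraries and 1 in the middle for most members that varied. Nothing in the labels says that the libraries came from separate animals, so tests here measure the spread between these libraries, which may be technical.

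Taken as a group of genes, the members held little of the liver RNA. Their counts summed to 0.124%, 0.0568% and 0.0798% of all counts in KO HFD replicates 1, 2 and 3, and to 0.273%, 0.203% and 0.230% in WT HFD. On the normal diet they held 0.0415%, 0.0572% and 0.0490% in KO ND, and 0.0658%, 0.0529% and 0.0421% in WT ND. By the Wilson method, the 95% bounds of each share lay less than 0.003 percentage points from it; such bounds, like floors, cover only the error of counting. All KO HFD libraries lay below all WT HFD libraries, and KO HFD replicate 2 lay within the range of the ND libraries. The 4 members of highest count made up 65.1% of the summed WT HFD mean, so these shares mainly describe them.

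Most members had low counts. The mean over 12 libraries was above 100 CPM for 4 members, 10 to 100 CPM for 10 and 1 to 10 CPM for 20, with a median of 4.18 CPM and a highest value of 215 CPM. The median was 8.33 CPM for the 166 other genes that passed the WT diet line but not the line on KO HFD against WT HFD. Low counts limit the precision of many members: 48 of 408 single values were under 10 counts, spread over 14 members. One value was 0, in WT ND replicate 2 of the member of rank 16, where a count of 0 allows up to 3 counts.

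**Figure D1:**
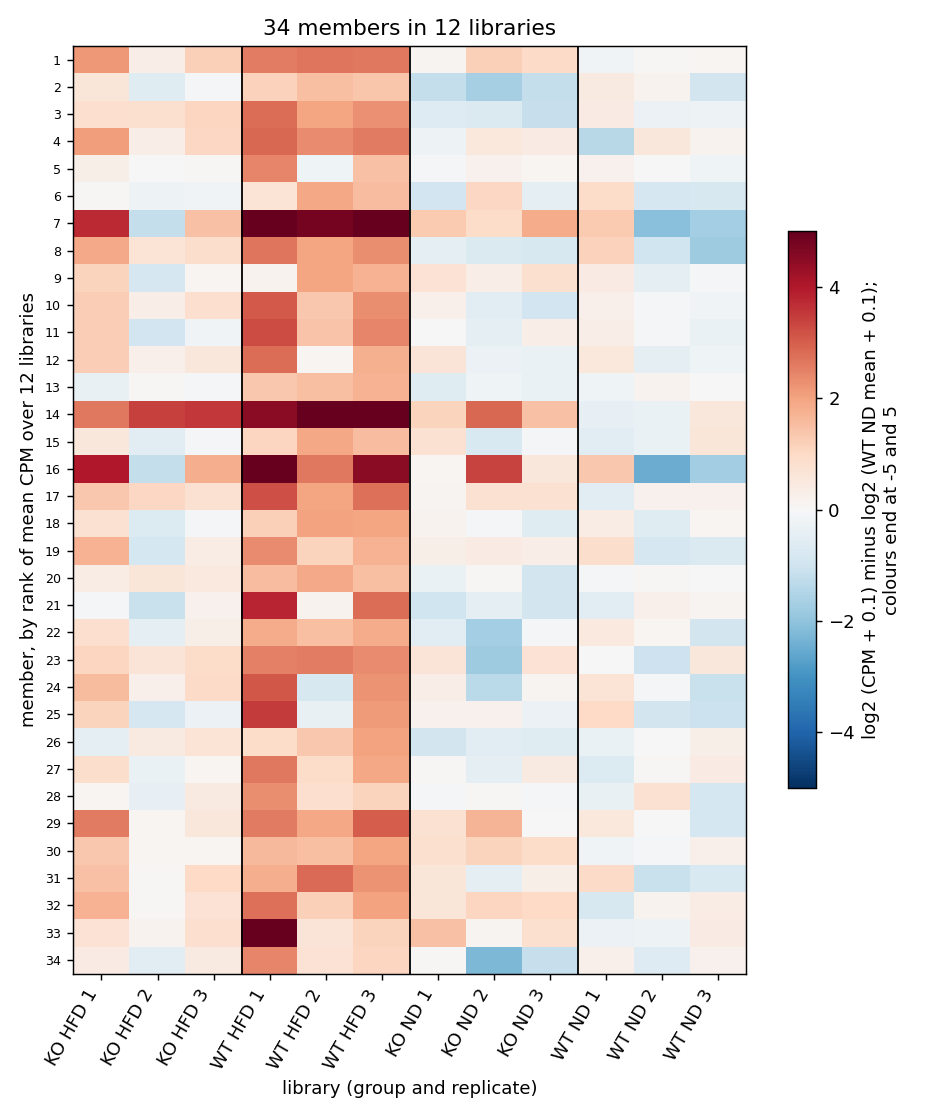
Level of each of the 34 members (rows, by rank of mean CPM) in each of the 12 libraries (columns), as the log2 ratio of CPM + 0.1 to the WT ND mean + 0.1, red above and blue below that mean, with colours ending at -5 and 5. WT HFD columns are reddest, KO HFD replicate 1 is redder than KO HFD replicate 2 in 30 of 34 rows, and several rows are red in WT HFD replicate 1 but pale in replicate 2.

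The member with the highest mean, MGP_C57BL6NJ_G0028766, was even in WT HFD and uneven in KO HFD. It had 332, 92.3 and 171 CPM in KO HFD replicates 1, 2 and 3, against 438, 467 and 461 CPM in WT HFD. On the normal diet it had 82.3, 168 and 143 CPM in KO ND, against 66.1, 76.6 and 79.2 CPM in WT ND. All WT HFD libraries lay above all KO HFD libraries, but KO HFD replicate 1 was nearer to WT HFD than to the other libraries of its group, and the KO HFD and KO ND ranges overlapped. Group means were 198 ± 122 CPM in KO HFD and 455 ± 15.4 CPM in WT HFD (SD, n = 3 each), a fitted log2 difference of -1.24 (SE 0.41).

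The second, MGP_C57BL6NJ_G0033457, had its lowest values in KO ND. It had 236, 102 and 149 CPM in KO HFD replicates 1 to 3, against 341, 444 and 406 CPM in WT HFD, and the 2 groups did not overlap. In KO ND it had 68.4, 49.3 and 68.8 CPM, against 209.7, 175 and 81.6 CPM in WT ND. Every KO ND library was below every WT ND library, with means of 62.2 ± 11.2 CPM in KO ND and 155 ± 66.2 CPM in WT ND (SD, n = 3 each). Its diet ratio was 2.60 in KO and 2.56 in WT, and the fitted difference between the 2 diet responses was a log2 value of -0.04 (SE 0.51). Its WT diet ratio was also the nearest of all members to the line of 2.5, and its identifier number lies 37 outside the window that was left out around the gene absent from KO. The member of rank 31 lies 30 outside that window on the other side; whether nearness to that gene bears on either was not tested.

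The members with the lowest KO HFD level relative to WT HFD, among those with at least 5 CPM in WT HFD, were MGP_C57BL6NJ_G0017003 (rank 7) and MGP_C57BL6NJ_G0035910 (rank 21). MGP_C57BL6NJ_G0017003 had 25.2, 0.743 and 5.17 CPM in KO HFD, against 214, 52.8 and 106 CPM in WT HFD. It had 4.64, 3.58 and 6.77 CPM in KO ND, against 4.63, 0.350 and 0.497 CPM in WT ND. The HFD groups did not overlap, yet the libraries inside each of them differed by 30.0-fold in KO HFD and 4.05-fold in WT HFD (of CPM + 0.1), and KO HFD replicate 2 was below all KO ND libraries. Its mean was 10.4 ± 13.03 CPM in KO HFD and 124 ± 82.1 CPM in WT HFD (SD, n = 3 each), a ratio of 0.0840 with a fitted log2 difference of -3.61 (SE 1.11). Its WT diet ratio of 64.7 was the highest of the members and rests on a WT ND mean of 1.82 ± 2.43 CPM (SD, n = 3), most of it from replicate 1.

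MGP_C57BL6NJ_G0035910 was uneven in WT HFD. It had 1.05, 0.446 and 1.29 CPM in KO HFD, against 16.3, 1.24 and 8.24 CPM in WT HFD. In KO ND it had 0.502, 0.771 and 0.537 CPM, against 0.727, 1.33 and 1.21 CPM in WT ND. WT HFD replicate 2 lay inside the ranges of both KO HFD and WT ND, while replicates 1 and 3 lay above every other library. The mean was 0.929 ± 0.436 CPM in KO HFD and 8.61 ± 7.56 CPM in WT HFD (SD, n = 3 each), and the fitted log2 difference was -3.26 (SE 0.73). It met the choice in each of 12 repeats with 1 library left out, as did 12 of the 34 members in all. The repeats reuse the values of the choice, so this is a description only.

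**Figure D2:**
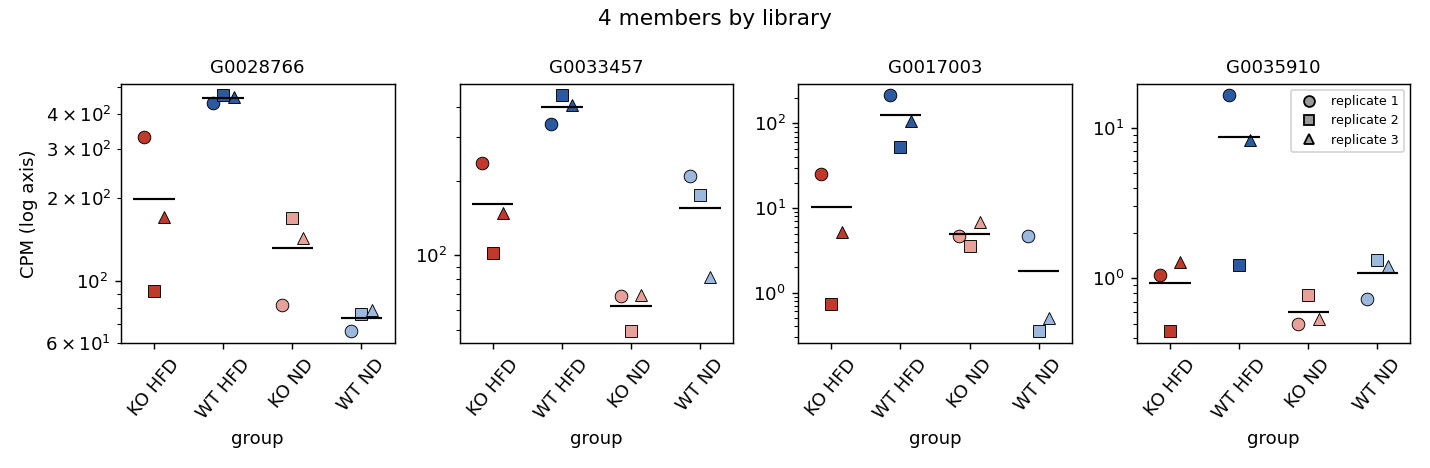
CPM on a log axis for the 4 members given by identifier, 1 panel each, in KO HFD, WT HFD, KO ND and WT ND; each symbol is a library (its shape gives the replicate) and each bar a group mean over 3 libraries. G0028766 sits at 438 to 467 CPM in all WT HFD libraries, whereas G0035910 spans 1.24 to 16.3 CPM there.

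The other members above 100 CPM were those of rank 3 and rank 4. Rank 3 had 135, 131 and 158 CPM in KO HFD, against 523, 295 and 364 CPM in WT HFD, so here KO HFD was the even group. It had 47.7, 45.4 and 34.1 CPM in KO ND, against 101.2, 61.9 and 63.0 CPM in WT ND, with every KO library below every WT library on the same diet. Rank 4 had 195, 57.9 and 95.9 CPM in KO HFD, against 338, 241 and 281 CPM in WT HFD. Its ND values were 38.4, 67.0 and 61.4 CPM in KO ND and 17.5, 69.1 and 52.2 CPM in WT ND, so KO HFD replicate 2 lay within the KO ND range.

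The diet ratio of the members in WT ran from 2.56 to 64.7, with a median of 4.51. It was under 4 for 15 members and over 10 for 4, those of rank 7, 14, 16 and 33, all with WT ND means under 2 CPM. The median of the 11702 genes had a lower CPM on HFD than on ND, with a ratio of 0.866 in KO and 0.788 in WT, so the members' ratios stand on a shifted scale. With the scaling of the fit (trimmed mean of M-values, TMM), the median gene differed by a log2 value of -0.03 and the median member by 2.59 in WT. All WT HFD libraries were above all WT ND libraries for 27 of 34 members, and for 26 of the 33 members with enough counts to be tested, against 15.1% of all 13843 genes tested. In the other 7, 1 WT HFD library did not exceed the highest WT ND library, replicate 2 for those of rank 5, 12, 21, 24 and 25 and replicate 1 for those of rank 6 and 9. By the quasi-likelihood test of edgeR at an adjusted p under 0.05, 32 of the 33 tested members were higher on HFD in WT, against 19.5% of all genes tested in that direction. The choice used this contrast, so nothing is read from either count.

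In KO the members' diet ratio ran from 0.809 to 3.79, with a median of 1.49, between limits that the choice itself set. It was under 1 for 5 members, 1 to 1.5 for 12, 1.5 to 2 for 9 and over 2 for 8. All KO HFD libraries were above all KO ND libraries for 6 members, against 19.1% of all genes tested. The edgeR test called 8 of 33 members higher on HFD in KO, against 22.6% of all genes tested, those of rank 2, 3, 8, 10, 13, 14, 20 and 26. With KO ND replicate 1 or KO ND replicate 3 left out the count was 5, against 19% and 17.9% of all genes then tested. With KO HFD replicate 3 left out it was 4, against 18.2%. Rank 8 had the highest diet ratio in KO, at 50.2, 21.3 and 24.5 CPM in KO HFD against 9.66, 7.92 and 7.51 CPM in KO ND, and it had 86.1, 52.2 and 67.4 CPM in WT HFD.

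**Figure D3:**
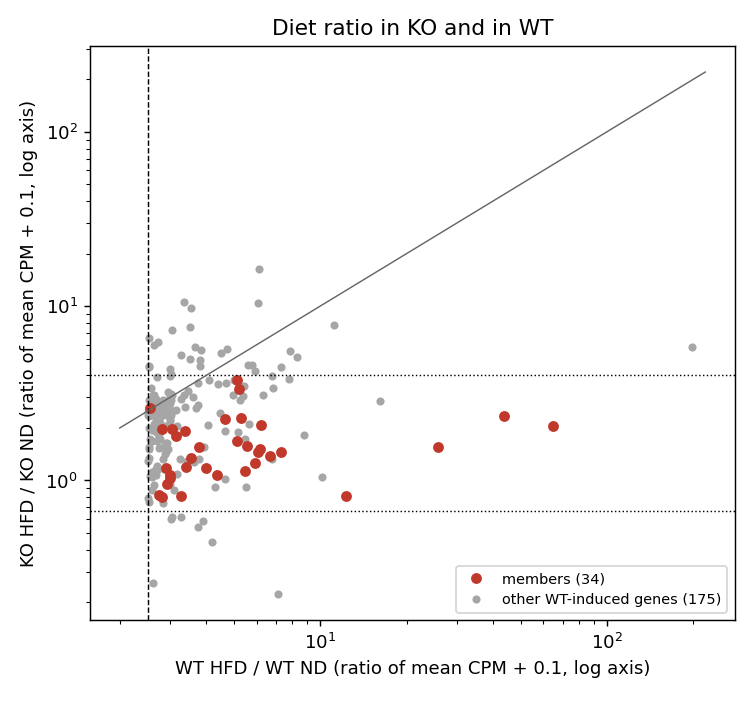
Ratio of the HFD to the ND group mean in KO (vertical) against the same ratio in WT (horizontal), both of mean CPM + 0.1 on log axes, for the 34 members (red) and the 175 other genes over the WT line of 2.5 (grey); dotted lines mark 0.67 and 4, the dashed line 2.5 and the solid line equal ratios. Members lie between the dotted lines, as the choice required, and all but the member of rank 2 lie below the line of equal ratios.

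The ratio of KO HFD to WT HFD had a median of 0.360 over the members and ran from 0.0840 to 0.482. It was under 0.25 for 6 members and over 0.4 for 13. All KO HFD libraries were below all WT HFD libraries for 23 members, all of them among the 33 tested, against 4.51% of all genes tested. The fitted log2 difference had a median of -1.55 over the 33 tested members, and its standard error a median of 0.50. The edgeR test called 3 of the 33 lower in KO HFD, those of rank 3, 13 and 17, against 0.159% of all genes tested. An unadjusted p under 0.05 in that direction was found for 26 members, against 4.83% of all genes tested. DESeq2 called 16 members lower, against 0.903% of all genes it tested. The choice used this contrast too, so nothing is read from these counts. Leaving out KO HFD replicate 1 raised the edgeR count to 15, against 2.45% of all genes then tested. Without WT HFD replicate 2 it was 5, against 0.197%. It was 1 when WT HFD replicate 3, KO HFD replicate 2 or KO HFD replicate 3 was left out. The shares of all genes then tested were 0.0492%, 0.0492% and 0.0211%.

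Rank 13 had the smallest standard error of the members in this contrast. It had 6.75, 9.22 and 8.23 CPM in KO HFD, against 22.6, 25.3 and 29.3 CPM in WT HFD, and 5.71, 7.64 and 7.04 CPM in KO ND, against 7.47, 9.87 and 9.02 CPM in WT ND. The WT HFD libraries stood apart from the other 9, which lay together between 5.71 and 9.87 CPM. Its fitted log2 difference between KO HFD and WT HFD was -1.75 (SE 0.17). For comparison, rank 17 had 4.42, 3.57 and 2.92 CPM in KO HFD, against 16.8, 6.86 and 12.0 CPM in WT HFD, a fitted log2 difference of -1.77 (SE 0.33). For rank 3 that difference was -1.55 (SE 0.25).

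The difference between the 2 diet responses, the interaction of diet and genotype, had a median log2 value of -1.73 over the 33 tested members and was negative in all of them, from -5.04 to -0.04. It passed the edgeR test for 3, those of rank 13, 14 and 17, against 0.441% of all genes tested that were lower. An unadjusted p under 0.05 was found for 17 members, against 7.33% of all genes tested in that direction, and DESeq2 called 5, against 1.84%. The edgeR count was 10 without KO HFD replicate 1, against 2.59% of all genes then tested. It was 1 without WT ND replicate 1, WT ND replicate 2 or KO HFD replicate 2, against 0.536%, 0.127% and 0.204%. Leaving out the third replicate of WT HFD or KO HFD left 0, against 0.0281% and 0.0352% of all genes then tested. Rank 14 had 4.50, 7.95 and 8.63 CPM in KO HFD, against 17.0, 49.0 and 32.3 CPM in WT HFD. It had 1.51, 5.33 and 1.95 CPM in KO ND, against 0.463, 0.490 and 0.995 CPM in WT ND, so its higher ND level in KO is part of the difference. Its 3 WT HFD libraries were above all others, and every KO ND library was above every WT ND library.

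No line of the choice named the comparison of KO with WT on the normal diet, although it follows from the 3 ratios used. The members lay on both sides of 1 there. The ratio of KO ND to WT ND was over 1 for 20 members and under 1 for 14. It had a median of 1.06 and a range from 0.401 to 4.31, and was over 1.5 for 10 members and under 0.67 for 7. Of the 11702 genes, 5497 were over 1 and 6205 under 1, with 699 over 1.5 and 956 under 0.67. The 166 other genes induced in WT had a median of 1.07. Of these, 95 were over 1 and 71 under 1, with 47 over 1.5 and 15 under 0.67. The groups did not overlap for 7 members, 4 higher and 3 lower in KO ND, against 32.2% of all genes tested in either direction. No member was called by edgeR, against 4.81% of all genes tested. An unadjusted p under 0.05 was found for 4 of the 33 tested members, against 21.3% of all genes tested, and DESeq2 called 3, against 9.44%. With edgeR, 1 member was called without WT ND replicate 3, WT HFD replicate 1, KO HFD replicate 1 or KO HFD replicate 2. The shares of all genes then tested were 3.23%, 5.08%, 8.28% and 5.62%, in that order. The fitted difference had a median log2 value of 0.09 over the members.

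The order of the libraries inside a group was not used in the choice, which took group means only. In KO HFD, replicate 1 was the highest library for 25 of 34 members (73.5%) and replicate 2 the lowest for 28 (82.4%). Over the 11702 genes, replicate 1 was the highest for 31.3% and replicate 2 the lowest for 28.7%. Members shared this order with the 166 other genes induced in WT, where replicate 1 was the highest for 81.9% and replicate 2 the lowest for 78.3%. KO HFD replicate 1 was at least 2-fold above replicate 2 for 20 members and at most 0.5 of it for 0, and 59.6% of the 166 were at least 2-fold above, against 58.8% of the members. Set against the WT HFD mean, the median member stood at 0.454, 0.236 and 0.340 in the 3 KO HFD libraries, by replicate number. The line of 0.5 was met by 19, 34 and 33 members in the 3 libraries. It was met by 9, 84 and 16 of the 166 other genes induced in WT, and by 293, 447 and 244 of the 11702. The choice bounded the mean of these libraries, so the counts of members are a description.

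In WT HFD the same order was the most frequent, but for fewer members than in KO HFD. Replicate 1 was the highest library for 19 members (55.9%), replicate 2 for 10 and replicate 3 for 5. Replicate 2 was the lowest for 22 (64.7%). Of the 166 other genes induced in WT, replicate 1 was the highest for 73.5% and replicate 2 the lowest for 64.5%. Over the 11702 genes these shares were 37.8% and 35.8%. Replicate 1 was at least 2-fold above replicate 2 for 16 members (47.1%), against 22.3% of the 166 other genes induced in WT and 5.73% of the 11702, and at most 0.5 of it for 4. These shares are a description, and a high single library also raises the mean that the choice used. The median coefficient of variation in WT HFD was 42.5% over the members, 24.2% over the 166 and 14.1% over the 11702. In KO HFD it was 45.6% over the members and 44.3% over the 166.

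The members split accordingly into 12 whose WT HFD libraries lay within 2-fold of each other and 22 whose libraries did not. In 7 of these the highest library was more than 5-fold above the lowest, each time replicate 1 above replicate 2. Rank 5 was one, with 63.4, 51.7 and 54.6 CPM in KO HFD, against 282, 44.96 and 144 CPM in WT HFD, and 49.8, 60.1 and 55.4 CPM in KO ND, against 60.3, 51.3 and 45.1 CPM in WT ND. Only WT HFD replicates 1 and 3 left the range of 44.96 to 63.4 CPM that held its other 10 libraries. Rank 33 had 9.37 CPM in WT HFD replicate 1 and 0.343 and 0.510 CPM in replicates 2 and 3, against 0.375, 0.223 and 0.408 CPM in KO HFD, and did not pass the filter on low counts. The 4 members for which WT HFD replicate 1 was at most 0.5 of replicate 2 were those of rank 6, 9, 14 and 31. That of rank 6 had 46.5, 37.2 and 39.6 CPM in KO HFD, against 71.0, 169 and 129 CPM in WT HFD, and 1 library stood apart in each ND group, at 92.5 CPM in KO ND and 83.2 CPM in WT ND, with the other 4 between 23.2 and 32.8 CPM.

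**Figure D4:**
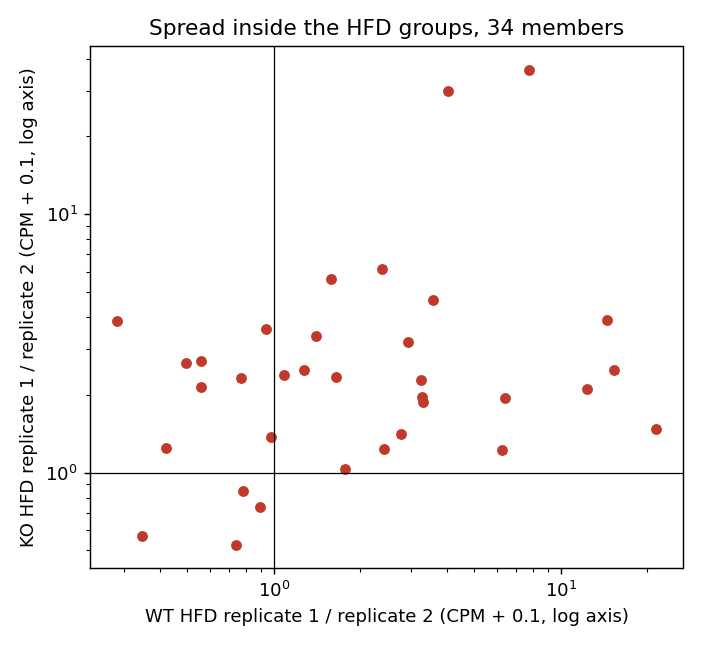
Each point is 1 of the 34 members; the vertical axis is the ratio of KO HFD replicate 1 to replicate 2 and the horizontal axis that of WT HFD replicate 1 to replicate 2, both of CPM + 0.1 on log axes, with lines at 1. The KO ratio is above 1 for 30 members, while the WT ratio runs from 0.285 to 21.4.

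Both requirements were met in single libraries by few members. Each of the 3 WT HFD libraries was at least 2.5 times the WT ND mean for 17 members, each of the 3 KO HFD libraries was at most 0.5 of the WT HFD mean for 18, and both held for 9. These 9 were those of rank 3, 7, 10, 11, 13, 14, 17, 20 and 23. The member of rank 23 had 2.17, 1.56 and 1.90 CPM in KO HFD, against 5.96, 6.11 and 5.39 CPM in WT HFD, and that of rank 20 had 2.32, 2.75 and 2.52 CPM, against 5.23, 6.73 and 5.18 CPM. Both groups were even in these, with no overlap.

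**Figure D5:**
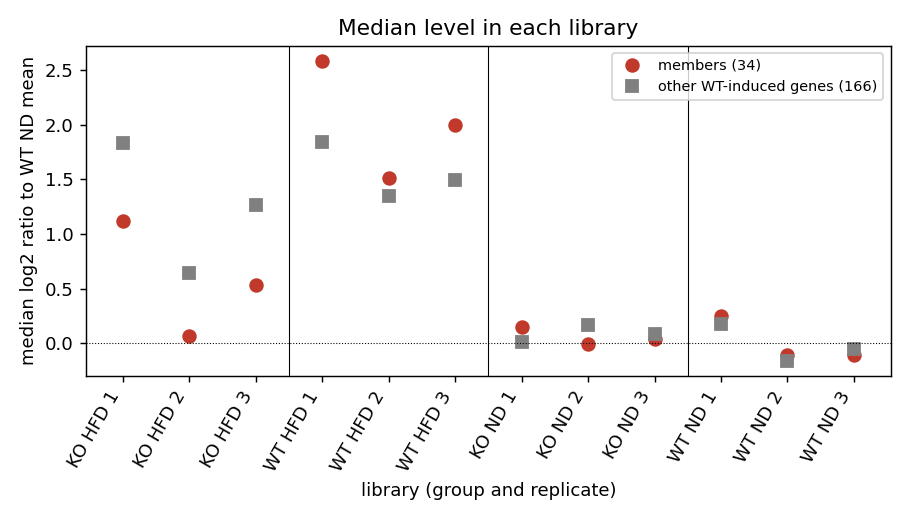
Median over genes of the log2 ratio of CPM + 0.1 to the WT ND mean + 0.1 in each library, for the 34 members (red circles) and the 166 other genes induced in WT whose KO HFD level was above 0.5 of WT HFD (grey squares). Members stand at 0.06 to 1.12 in KO HFD, against 1.52 to 2.59 in WT HFD, and the other genes at 0.64 to 1.84 in KO HFD, against 1.34 to 1.85 in WT HFD.

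The members near the lines of the choice differed little from genes just outside them. The nearest WT diet ratios were 2.56 inside and 2.44 outside, the nearest ratios of KO HFD to WT HFD were 0.482 inside and 0.508 outside, and the nearest diet ratios in KO were 3.79 inside and 4.24 outside at the upper line and 0.809 inside and 0.616 outside at the lower one. Of the 209 genes over the WT line, 166 missed the line on KO HFD against WT HFD, 5 had a KO diet ratio of at least 4 and 4 had one of at most 0.67. A further 70 genes met every ratio but had a mean under 1 CPM. With 1 library left out at a time, the choice gave 26 to 57 genes, and 12 members were chosen under all 12 omissions. The 57 came with KO HFD replicate 1 left out and included 27 members; the 26 came with WT HFD replicate 1 left out and included 25.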

How the data were processed

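Liver RNA had been taken up in Trizol and sequenced from libraries of the NEBNext Ultra RNA kit, per the labels' protocols; reads from the 2 strands are not distinguished by this kit. The deposited table holds raw read counts per gene for 12 libraries. HISAT2 2.0.5, featureCounts 1.5.0-p3 and the build mm39 are named in the submitters' processing notes, whereas the identifiers belong to a C57BL/6NJ annotation, so no coordinates are given. The sources used here do not say how shared reads were treated, and members that overlap or resemble another gene are uncertain. Of 42554 identifiers, 0 matched a symbol.

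The members, the choice of genes to describe and the tests were set with earlier results of these data known. The planned rule named by identifier the 2 members with the highest mean and the 2 with the lowest KO HFD to WT HFD ratio at 5 CPM or more in WT HFD; other members were picked for description after their values were seen. CPM used column totals. Counts were tested with edgeR 4.0.16 in R 4.3.3 (filterByExpr with 4 groups, 13843 genes kept, TMM, robust quasi-likelihood F-test, 1 mean per group over all 12 libraries), with p-values adjusted by Benjamini-Hochberg over every gene tested and calls made under 0.05. Of the 34 members, 33 passed the filter. Fitted differences are log2. Their standard error was approximated as the absolute log2 difference divided by the square root of the F statistic. The edgeR steps were tested on simulated counts for the contrast of KO HFD with WT HFD only. Alternatives were DESeq2 1.42.0, its size factors, no filter, only the groups compared, a replicate block, each library left out, and other settings of the choice.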

Additional observations from a re-analysis of the deposited data

Results flagged for a closer look

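The diet response differed between the genotypes for 3 members by the interaction term of edgeR. They had been chosen on ratios that bound this term, so the test is no independent evidence. The log2 difference, KO minus WT, was -1.40 (SE 0.24) for the member of rank 13, -4.47 (SE 0.79) for rank 14 and -2.41 (SE 0.49) for rank 17. For rank 13 all KO HFD libraries were below all WT HFD libraries, and the same held for ranks 14 and 17. It held for 23 of the 33 tested members, against 4.51% of all genes tested. The choice bounded this ratio too, so nothing is read from it. With replicate 3 left out of both HFD groups, 0 members passed this test. Of all 14143 genes then tested, 0 were called lower by it.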

How the results depend on the processing

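Of 105 alternatives for the 6 counts, 75 moved the count by no more than 1.5 times, 15 raised it further and 15 lowered it further. Fits of fewer libraries have fewer samples to estimate the spread, but the cause of the changes was not tested. DESeq2 called 16 members lower in KO than in WT on HFD (0.903% of all genes it tested), 5 for the interaction (1.84%) and 3 on ND (9.44%). Without a filter on low counts 5 members were called for the diet in KO (12% of all genes tested). In the HFD libraries alone 1 was called between genotypes (0.0389%). Whether the replicate numbers pair the libraries is not known, and the main fit did not pair them. Same-numbered libraries of KO HFD and WT HFD deviated together with correlations of 0.24, 0.18 and 0.04. Replicates 1 and 2 went best with their own number, and replicate 3 did not. On ND these correlations were 0.25, 0.04 and 0.01, and only replicate 1 went best with its own number. With 3 libraries a group, they cannot show whether the numbers pair the libraries. With the replicate block 5 members were called on HFD (0.26% of all genes tested), 2 of the 3 reported among them. On ND the block gave 2 (6.44%). Leaving out 1 library gave 1 to 15 members on HFD, 0 to 10 for the interaction, 25 to 33 for the diet in WT, 4 to 10 for the diet in KO, 0 to 1 on ND, and 26 to 57 genes for the choice itself. In these settings 0.0211% to 2.45% of all genes tested were called on HFD, and 0.0281% to 2.59% for the interaction. The shares were 14.4% to 20.9% for the diet in WT, 17.8% to 22.5% in KO and 0.648% to 8.28% on ND. An alternative chosen after seeing the data left out both HFD replicates 1. It called 14 members on HFD (2.27% of all genes tested) and 9 for the interaction (2.84%). Another, also chosen after seeing the data, left out both HFD replicates 3. It called 0 members on HFD (0.0141% of all genes tested) and 0 for the interaction (0%). The choice gave 41 genes with TMM library sizes (33 of them members), 38 with group medians (28 members), 32 and 27 with 0.5 and 1 CPM added, and 32 with 300 identifiers to either side left out, also set after seeing the data. Relative to the level, the error of counting is largest for the 20 members under 10 CPM. The standard errors also hold the spread between libraries and did not simply follow CPM.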

Other observations

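Among 417 unannotated loci in the same abundance range, 45 passed the line on the WT diet ratio and 1 met the whole choice, at a mean of 1.18 CPM in KO HFD, 2.53 CPM in WT HFD, 1.30 CPM in KO ND and 0.693 CPM in WT ND.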
